A study of Ovis aries with 16 samples.

Results

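MIR21, MIR143 and MIR199A are 3 of the 105 miRNAs, and of the 4920 transcripts in all 4 tables, measured by small RNA sequencing in a sheep study of prenatal bisphenol A (BPA). They were taken by name, and each has a value in all 16 libraries. BPA is a plastics monomer with oestrogen-like activity. The exposed group comprised 4 female Suffolk offspring of ewes given BPA in corn oil under the skin every day, at 0.5 mg per kg, between gestation days 30 and 90. The control group comprised 4 female offspring of ewes given the corn oil vehicle over the same days. Every animal was killed at about 21 months of age, after 48 hours without food and 24 hours after the second of a pair of prostaglandin injections spaced 11 days apart, so fasting and the synchronised cycle are shared by all groups. From each animal a piece of vastus lateralis (a thigh muscle) and the tip of the left liver lobe were sequenced as bulk tissue. This gave 4 BPA and 4 control libraries per tissue, and animals are identified here by their number.

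A miRNA is cut from a hairpin precursor into short strands that bind the 3' ends of messenger RNAs and lower their output. In mammals, miR-143 is abundant in smooth muscle cells and fibroblasts and is made with miR-145 from a shared primary transcript. miR-199a is abundant in mesenchymal cells, and its copy in DNM3 is made together with miR-214 from a transcript antisense to that gene. miR-21 is made in many cell types, lies in an intron of VMP1, and is known for its rise in activated fibroblasts and in fibrotic liver, heart and kidney. In liver, stellate cells and portal fibroblasts are known sources of this group, and in skeletal muscle, vessel walls and interstitial fibroblasts. In the RefSeq gene table of sheep assembly ARS-UI_Ramb_v3.0, MIR21 lies within VMP1, MIR199A within DNM3 and MIR143 within the lncRNA locus LOC114114896. That locus has a row of its own in the lncRNA table, with 0 to 3 recovered reads per library and 13 in all, against 6011 to 73518 reads per library for MIR143. Each miRNA has 1 row, so the strands from the 5' and 3' arms of its hairpin are not separated. Of 6 names listed for fibroblasts and smooth muscle, MIR143, MIR21 and MIR199A matched rows, and MIR145, MIR214 and MIR199B did not.

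All values are the authors' normalized counts, in which a read count is divided by 1 size factor per library, set apart in each of the 4 tables. In control liver 902, for instance, 1 read stood for 3.50 among the miRNAs and 0.190 among the snRNAs. Reads assigned to miRNAs numbered 578150 to 1383538 in BPA livers and 94393 to 240815 in control livers. They numbered 596919 to 1044886 in BPA muscle and 471691 to 559705 in control muscle. The fewest reads behind any value of the 3 miRNAs were 520, for MIR21 in control muscle 928, so the counting error (1 SD) was at most 4.39% of a value. The tissue markers fitted the labels, with MIR133, a miRNA of striated muscle, between 244661 and 373488 in muscle and between 115 and 717 in liver.

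MIR143 was the most abundant of the 3, MIR199A the next and MIR21 the least, per nucleotide of annotated hairpin (101, 104 and 72 nt). That order held in 16 of 16 libraries. The strands sequenced are shorter than the hairpin, so scaling by hairpin length moves places. MIR199A in BPA livers 910 and 918 stood 13th and 14th by value but 17th and 18th per nucleotide. The order of the 3 was the same by value, with MIR143 at least 1.88 times MIR199A and MIR199A at least 1.47 times MIR21. In muscle MIR143 averaged 137 ± 46.9 normalized counts per nucleotide, MIR199A 49.5 ± 14.2 and MIR21 11.0 ± 1.31 (SD, n = 8). In liver the same averages were 254 ± 73.8, 87.1 ± 25.5 and 64.6 ± 14.5 (SD, n = 8). Among all 105 miRNAs ranked in this way by tissue mean, MIR143 stood 10th in muscle and 5th in liver, MIR199A 18th and 14th, and MIR21 32nd and 17th. Ranges over libraries overlapped between neighbours in that order. The ranges of MIR143 overlapped with those of MIR30D and MIR22 in muscle and of MIRLET7G and MIRLET7A in liver, and the ranges of MIR199A and MIR21 overlapped with those of the next miRNA on each side in either tissue. Within single muscle libraries, MIR21 was above MIR106B, MIR127 above MIR21 and MIR143 above MIR22 in 7 of 8 libraries each. MIR143 was above MIR30D in 2 of 8. MIR199A was above MIR23B in 4 of 8 and above MIR29A in 5 of 8, so its place was not regular. Places in liver were not regular either. In single livers MIR143 stood between 3rd and 9th, above MIRLET7G in 3 of 8 and above MIRLET7A in 3 of 8. MIR199A was above MIR30D in 3 of 8 livers and above MIR29A in 5 of 8. MIR21 was above MIR125B in 5 of 8 and above MIRLET7C in 5 of 8. MIR143 made up 1.01% to 3.74% of miRNA reads in muscle and 4.91% to 11.5% in liver, MIR199A 0.418% to 1.41% and 1.76% to 3.90%, and MIR21 0.107% to 0.173% and 1.01% to 1.89%. The widest exact binomial 95% interval among these shares was that of MIR143 in control liver 902, from 9.29% to 9.66%, and it covers counting error only.

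**Figure D1:**
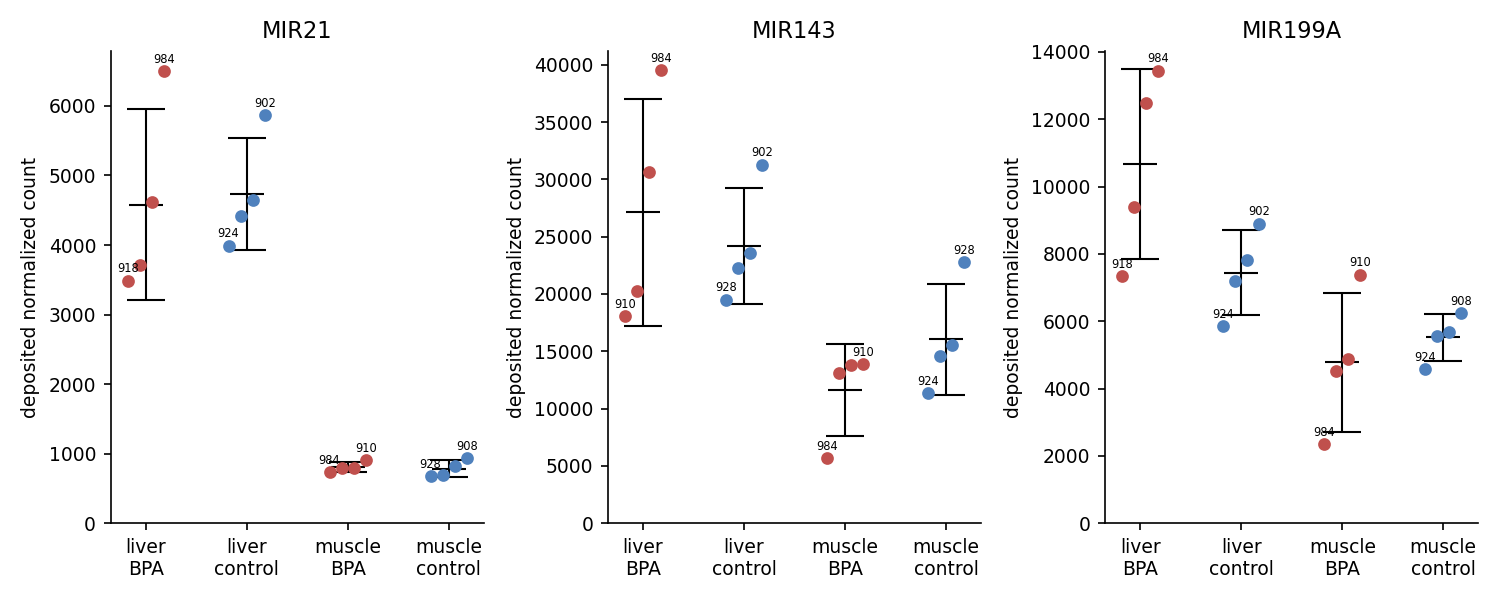
Deposited normalized counts (y axis, linear from 0) of MIR21, MIR143 and MIR199A in BPA and control libraries of liver and muscle. Points are animals, with the lowest and highest of each group numbered; bars are the mean and SD of 4 libraries. MIR21 lies between 672 and 937 in muscle and between 3488 and 6502 in liver, whereas the tissues overlap for MIR143 and MIR199A.

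As deposited, MIR21 was the only miRNA of the 3 whose range over libraries did not overlap between tissues. As shares of miRNA reads, none of the 3 overlapped. MIR143 was then at most 3.74% in muscle and at least 4.91% in liver, and MIR199A at most 1.41% and at least 1.76%. The normalized count of MIR21 was 910, 795, 789 and 730 in muscle of BPA animals 910, 918, 977 and 984. In control muscle it was 822, 937, 699.5 and 672 for animals 902, 908, 924 and 928. In liver it was 3707, 3488, 4621 and 6502 for the same BPA animals and 5863, 4422, 3989 and 4645 for the same control animals. No muscle library reached the lowest liver library, and muscle was lower than liver in 8 of 8 animals. Muscle minus liver was -2.53 on the log2(value + 1) scale, with a 95% interval from -2.82 to -2.24 (limma adjusted p = 4.48e-12), a level of 0.173 times that of liver. Libraries of the same animal were not paired in the main tissue fit of the 3 miRNAs. With the animal as a block, the limma adjusted p of MIR21 was 2.99e-08. In bulk tissue, fewer cells of a type and less RNA per cell cannot be told apart.

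The size of this difference depends on the scale, because the authors scaled each tissue alone. The median tested miRNA was at -0.73 log2 units in muscle minus liver as deposited, and 63 of 76 (82.9%) were called, 17 higher and 46 lower. On a scale set over both tissues together, which shifts muscle by 0.59 relative to liver, the median was -0.14 and 57 of 75 (76%) were called, 27 higher and 30 lower. On values scaled to the total of miRNA reads the median was -1.53 and 73 of 85 (85.9%) were called, 9 higher and 64 lower. MIR21 passed on all 3 scales, at -2.53, -1.94 and -3.32. Relative to the median miRNA its difference was -1.80 as deposited, -1.80 on the common scale and -1.79 on values scaled to the total of miRNA reads.

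MIR143 and MIR199A were lower in muscle as deposited but did not pass on the common scale. MIR143 was 13862, 13117, 13811 and 5653 in muscle of BPA animals 910, 918, 977 and 984. It was 14605, 15503, 11326 and 22778 in muscle of control animals 902, 908, 924 and 928. In liver it was 18039, 20281, 30615 and 39524 in the BPA animals and 31283, 23599, 22304 and 19513 in the controls. The highest muscle, that of control 928, exceeded the livers of BPA animals 910 and 918 and of controls 924 and 928, and muscle was lower than liver in 7 of 8 animals as deposited (all but control 928) and in 6 of 8 on the common scale (all but control 928 and BPA animal 910). Muscle minus liver was -0.93 as deposited (95% interval -1.36 to -0.49, limma adjusted p = 4.68e-04). On the common scale it was -0.34 (interval -0.79 to 0.11, adjusted p = 0.153).

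MIR199A was 7384, 4871, 4523 and 2345 in muscle of the BPA animals and 5576, 6235, 4581 and 5693 in muscle of the controls, in the same animal order. In liver it was 9408, 7329.6, 12485 and 13444 in the BPA animals and 8899, 7816, 5859.9 and 7196 in the controls. Muscle was lower in 8 of 8 animals as deposited and in 4 of 8 on the common scale. The difference was -0.83 as deposited (interval -1.23 to -0.43, limma adjusted p = 5.62e-04) and -0.24 on the common scale (interval -0.65 to 0.17, adjusted p = 0.263). On values scaled to the total of miRNA reads both passed again, at -1.72 for MIR143 and -1.62 for MIR199A. Relative to the median miRNA, MIR143 was at -0.20 on either scale, and MIR199A at -0.097 as deposited and -0.10 on the common scale.

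**Figure D2:**
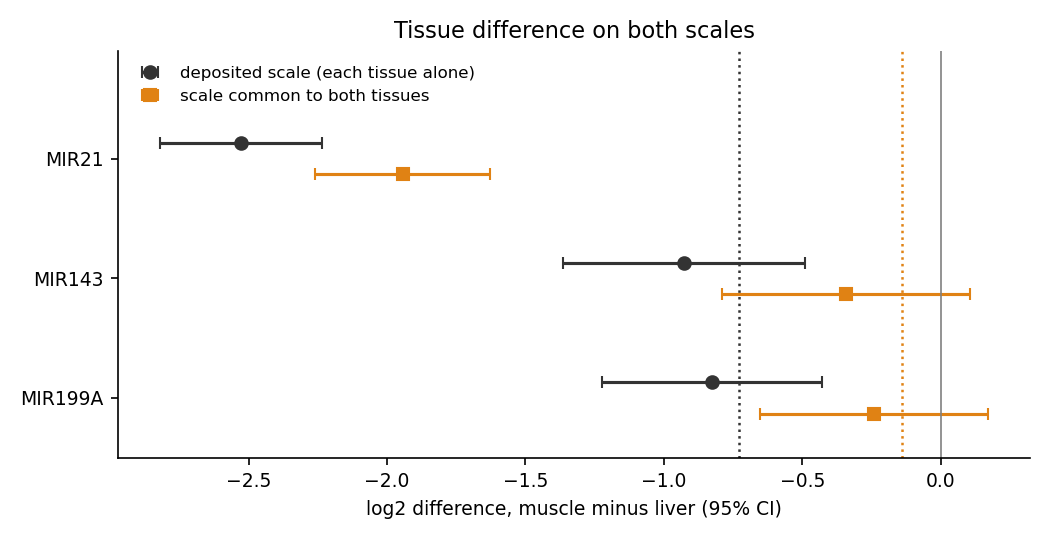
Muscle minus liver in log2 units (x axis) for each miRNA, with 95% intervals from limma over 16 libraries. Black circles are the deposited scale and orange squares a scale common to both tissues; dotted lines mark the median of all tested miRNAs, -0.73 and -0.14. MIR21 lies far to the left on both scales, while the intervals of MIR143 and MIR199A reach 0 on the common scale.

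Ratios of the 3 miRNAs within a library do not depend on the size factor, and they gave the same separation of MIR21 from the other two. The ratio of MIR143 to MIR21 averaged 14.2 ± 4.43 in BPA muscle and 21.1 ± 8.55 in control muscle, and 5.85 ± 0.736 in BPA liver and 5.12 ± 0.622 in control liver (SD, n = 4 each). It was higher in muscle in 8 of 8 animals, by 3.03-fold (range over animals 0.35 to 3.01 log2 units; exact sign-flip permutation p = 0.00781, the smallest that 8 animals can give, and 0.0117 after Benjamini-Hochberg adjustment over 3 ratios). The ratio of MIR199A to MIR21 was 3.25-fold higher in muscle, again in 8 of 8 animals (1.70 ± 0.61 log2 units, exact p = 0.00781, adjusted 0.0117). The ratio of MIR143 to MIR199A was not separated between tissues. It was higher in muscle in 2 of 8 animals, with a mean difference of -0.10 ± 0.39 log2 units (exact p = 0.438, adjusted 0.438).

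**Figure D3:**
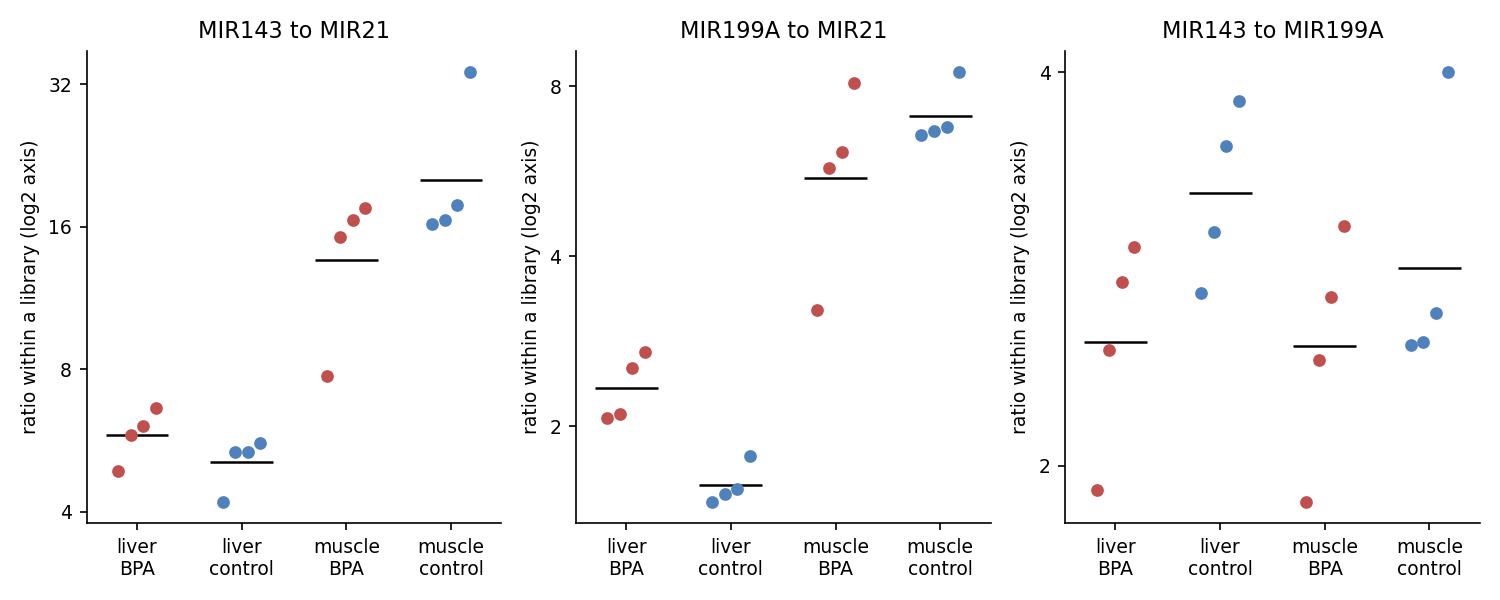
Ratios of normalized counts within a library (y axis, log2) for the 3 pairs of miRNAs, by tissue and treatment. Points are libraries and lines the mean on the log2 scale. The ratios to MIR21 are higher in muscle than in liver, and the ratio of MIR199A to MIR21 in BPA livers, 2.07 to 2.70, lies above that in control livers, 1.47 to 1.77. That liver difference did not pass after adjustment (exact permutation, adjusted p = 0.171).

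In liver, none of the 3 miRNAs passed the test of BPA against control, in which 9 of 78 miRNAs (11.5%) were called, 5 higher and 4 lower. MIR199A was nearest, at 10667 ± 2813 in BPA livers and 7443 ± 1268 in control livers (SD, n = 4 each). The difference was 0.50 ± 0.22 log2 units (SE; interval 0.016 to 0.97; limma adjusted p = 0.201, unadjusted 0.0438). BPA livers 910, 977 and 984 lay above every control liver, and BPA liver 918 lay among the controls. MIR143 was at 27115 ± 9922 in BPA livers and 24175 ± 5036 in control livers (0.12 ± 0.24 log2 units, adjusted p = 0.903). MIR21 was at 4579.5 ± 1372 in BPA livers and 4729.6 ± 803 in control livers (-0.076 ± 0.23, adjusted p = 0.907). The intervals of these differences allow a BPA level of 0.755 to 1.55 times the control level for MIR143 and of 0.671 to 1.34 times for MIR21. With 1 size factor per library set over all 4 tables in place of the miRNA table, all 3 passed as higher in BPA livers, at 1.96 for MIR199A, 1.58 for MIR143 and 1.39 for MIR21, but the median miRNA then stood at 1.52.

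Of the 3 ratios, that of MIR199A to MIR21 was the only one without overlap between BPA and control livers, but it did not pass after adjustment. Ratios of other miRNAs were not computed, so how common such a lack of overlap is among them is not known here. It was 2.54, 2.10, 2.70 and 2.07 in BPA livers 910, 918, 977 and 984 and 1.52, 1.77, 1.47 and 1.55 in control livers 902, 908, 924 and 928. The difference was 0.57 log2 units, with an exact permutation p of 0.0286, the smallest that 4 against 4 can give. After Benjamini-Hochberg adjustment over 6 ratio tests the p was 0.171. The differences were 0.19 log2 units for MIR143 to MIR21 (exact p = 0.257, adjusted 0.343) and -0.38 for MIR143 to MIR199A (exact p = 0.0857, adjusted 0.257).

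Depth and RNA composition moved with treatment in liver. Beside the deeper miRNA counts given above, snRNA reads per 100 miRNA reads were 0.137 to 0.279 in BPA livers and 12.4 to 41.2 in control livers, and their part in the values of the 3 miRNAs was not tested. MIR133 was at 574 in BPA liver 984 and 717 in control liver 902, against 115 to 164 in the other livers. Those 2 libraries also held the highest MIR21, MIR143 and MIR199A of their groups. The MIR133 level in them was 0.178% and 0.223% of the muscle mean, and its part in the values of the 3 miRNAs was not tested.

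In muscle, none of the 3 passed, and none of the 70 miRNAs tested was called (0%; 3 had an unadjusted limma p under 0.05, and edgeR and DESeq2 also called 0). MIR143 was at 11611 ± 3986 in BPA muscle and 16053 ± 4829 in control muscle, a difference of -0.51 ± 0.27 log2 units (SE; interval -1.08 to 0.060; limma adjusted p = 0.706). MIR199A was at 4781 ± 2064 in BPA muscle and 5521 ± 689 in control muscle (-0.31 ± 0.25, adjusted p = 0.841). MIR21 was at 806 ± 75.4 in BPA muscle and 783 ± 122 in control muscle (0.051 ± 0.15, adjusted p = 0.870), and its interval allows a BPA level of 0.827 to 1.30 times the control level. BPA muscle 984 was the lowest of all 16 libraries for MIR143 and MIR199A. Without animal 984 the differences were -0.19 for MIR143 and -0.0074 for MIR199A (limma adjusted p = 0.757 and 0.985). Without control 928 the difference for MIR143 was -0.33 (adjusted p = 0.903), and without BPA animal 910 that for MIR199A was -0.56 (adjusted p = 0.614, unadjusted 0.0276). Across the settings tried, the adjusted p of MIR143 in muscle lay between 0.507 and 0.903, and that of MIR199A between 0.511 and 0.985. The ratios in muscle did not pass either, with -0.56 for MIR143 to MIR21, -0.36 for MIR199A to MIR21 and -0.20 for MIR143 to MIR199A (exact permutation p = 0.171, 0.286 and 0.457; adjusted 0.343, 0.343 and 0.457). These values moved with single animals. The difference for MIR143 to MIR21 was -0.29 without 984, -0.31 without 928 and -0.11 with group medians. That for MIR199A to MIR21 was -0.10 without 984, -0.18 with group medians and -0.55 without 910 (exact permutation p = 0.0286, adjusted 0.0857, against adjusted values of 0.0857 to 0.720 over the settings tried). That for MIR143 to MIR199A was -0.032 without 928, -0.066 without 910, -0.30 without 977 and -0.0025 with group medians.

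The BPA effect was not shown to differ between tissues for any of the 3, in a test that called 2 of 76 miRNAs (2.63%), and 0 with the animal as a replicate block. The interaction, the BPA effect in muscle minus that in liver, was -0.81 ± 0.38 for MIR199A, -0.63 ± 0.42 for MIR143 and 0.13 ± 0.28 for MIR21 (SE, limma adjusted p = 0.276, 0.392 and 0.814). For the ratio of MIR199A to MIR21 it was -0.93 log2 units (exact permutation p = 0.0286, the smallest possible, and 0.0857 after adjustment over 3 ratios). Animal 984 entered both sides of these values, with the highest liver and the lowest muscle level of MIR143 and of MIR199A. Without it the interactions were -0.38 for MIR199A and -0.10 for MIR143, and without control 928 that of MIR143 was -0.35. Other animals moved them the other way. Without BPA animal 910 they were -1.10 for MIR199A and -0.91 for MIR143 (limma adjusted p = 0.157 and 0.341). Without BPA animal 918 they were -1.02 and -0.83 (limma adjusted p = 0.419 and 0.449).

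The values also moved with the library code in the labels, whose meaning the labels do not give. Codes run up to 79 for livers 977, 984 (BPA) and 902 (control) and for every muscle library except BPA 984. They are 95 to 97 for BPA livers 910 and 918 and BPA muscle 984, and above 97 for control livers 908, 924 and 928. The 3 livers with codes up to 79 had the 3 highest levels of MIR143, 39524, 30615 and 31283, against 18039 to 23599 in the other 5. BPA livers with these codes averaged 5561 for MIR21 and 12965 for MIR199A, and BPA livers with codes 95 and 96 averaged 3598 and 8369 (n = 2 each, no test). Within codes up to 79, where 1 control liver remains, the BPA difference in liver was 0.54 for MIR199A, 0.15 for MIR143 and -0.097 for MIR21 (limma adjusted p = 0.123, 0.813 and 0.844), with that lone control assumed to vary like the other groups. Across the settings tried, the adjusted p in liver lay between 1.39e-04 and 0.388 for MIR199A, between 5.48e-04 and 0.965 for MIR143 and between 0.00513 and 0.986 for MIR21, the low ends with 1 size factor over the 4 tables. Among livers with codes above 79, each code range held only BPA or only control libraries, so code and treatment cannot be told apart there. Code and animal cannot be told apart within a group.

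**Figure D4:**
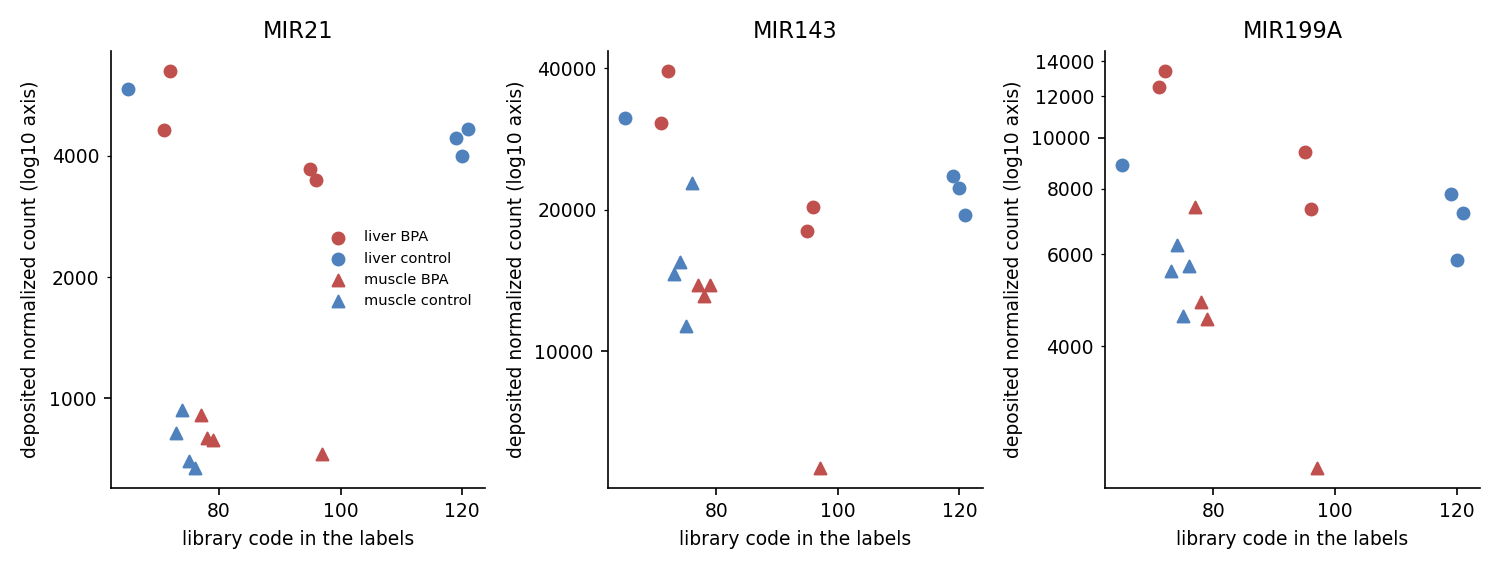
Deposited normalized counts (y axis, log10) of the 3 miRNAs against the number of the library code in the labels (x axis). Red is BPA and blue control; circles are liver and triangles muscle. The 3 livers with codes below 80 hold the most MIR143, and BPA muscle 984, with code 97, the least.

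Within groups, levels of the 3 miRNAs were correlated in liver, and less evenly in muscle. As a description over 16 libraries, with each group's mean subtracted, Pearson's r was 0.81 between MIR143 and MIR199A, 0.68 between MIR21 and MIR199A and 0.57 between MIR21 and MIR143. Without animal 984 these were 0.55, 0.79 and 0.38. In the 8 muscle libraries alone, r was 0.82 between MIR143 and MIR199A, 0.62 between MIR21 and MIR199A and 0.22 between MIR21 and MIR143, and without animal 984 these were 0.35, 0.64 and -0.16. In the 8 livers they were 0.81, 0.88 and 0.90, and without animal 984 they were 0.73, 0.89 and 0.81. No animal other than 984 was left out. High r in liver was not particular to the 3. There MIR411A was most like MIR143 (r = 0.93), MIR374B most like MIR199A (0.94) and MIR380 most like MIR21 (0.94). In the liver order by r, MIR199A stood 8th for MIR143 and MIR143 stood 7th for MIR199A, with MIR21 3rd for each. For MIR21, MIR143 stood 2nd and MIR199A 5th. The points share libraries and size factors. Among the 70 miRNAs tested in both tissues, MIR374B, MIR379 and MIR152 were most like MIR143 (r = 0.88, 0.85 and 0.82), and MIR152, MIR143 and MIR374B most like MIR199A (0.81 each). Without animal 984 these r were 0.70, 0.70 and 0.57 for MIR143 and 0.57, 0.55 and 0.50 for MIR199A. For MIR21 the most like were MIR380, MIR133 and MIR374A (0.86, 0.78 and 0.77, and 0.85, 0.60 and 0.68 without animal 984). MIR152, a miRNA that targets DNA methyltransferase 1 in mammals, had 384, 324, 292 and 166 in muscle of BPA animals 910, 918, 977 and 984, against 316 to 376 in control muscle. Its livers had 1776, 2266, 3710.1 and 3637 in the same BPA animals, against 2537 to 3111 in controls. MIR152 shared with MIR143 and MIR199A the low muscle of animal 984 and the split of the BPA livers.

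A list of fibrosis-related miRNAs was read beside these members. Of its 27 names, 17 rows matched and 16 were tested; MIR29B-1 and MIR29B-2 hold the same values, so these copies cannot be told apart. In liver of BPA animals MIR200B, of epithelial cells, rose by 2.07 ± 0.30 and MIR30B, which targets connective tissue growth factor in mammals, fell by 1.87 ± 0.35 log2 units (SE, limma adjusted p = 7.08e-04 and 0.00476). The called share, 2 of 16, was near that of all miRNAs tested, 9 of 78 (11.5%). The other 14 did not pass, among them MIR29A, which represses collagen genes, at -0.52 ± 0.18 (adjusted p = 0.0790). Within library codes up to 79, where 1 control liver remains, MIR200B was at 1.82 and MIR30B at -0.80. With 1 size factor over the 4 tables MIR30B did not pass (-0.41, limma adjusted p = 0.461). Across the settings tried, the adjusted p lay between 3.00e-09 and 0.0244 for MIR200B and between 2.60e-05 and 0.461 for MIR30B. The list's median was -0.011, against 0.054 over all miRNAs tested. The sum of the epithelial MIR200A, MIR200B and MIR200C (3 of 5 names) was 1504 to 1965 in BPA livers and 482 to 1367 in control livers. Of these 3 only MIR200B passed, and the BPA differences of MIR200C and MIR200A were 0.54 ± 0.63 and -0.14 ± 0.33 (SE, limma adjusted p = 0.680 and 0.903). In BPA muscle 0 of 16 passed, with a median of -0.16 against 0.014. Between tissues 3 were higher and 12 lower in muscle as deposited, against 17 higher and 46 lower of all 76 tested. On the common scale 3 were higher and 5 lower, against 27 higher and 30 lower of all 75 tested, with MIR21 among the lower ones on each scale. The lists of other cell types hold few rows. Summed over MIR148A and MIR194, 2 of 4 hepatocyte names, the level was 40787 to 66109 in BPA livers and 45135 to 61597 in control livers. Leukocyte MIR150 (1 of 4 names) was at 231 to 493 in BPA livers and 199 to 549 in control livers, and at 1485 to 2760.2 in BPA muscle and 1368 to 2028 in control muscle. Endothelial MIR221 (1 of 3 names) was at 435 to 703 in BPA livers and 345 to 730.1 in control livers, and at 281 to 467 in BPA muscle and 296 to 390.4 in control muscle. No erythroid name matched, no matched marker was at 0 in a whole group, and neither MIR150 nor MIR221 was called for BPA in either tissue.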

How the data were processed

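The authors deposited normalized counts, a signal per transcript and library, in 4 tables; per the submitters' processing notes, featureCounts 1.6.1, STAR 2.6.0c and cutadapt 3.2 were used, with no roles stated. Not given in the sources used here were the genome build, annotation and normalization tool. Dividing each library by its smallest step gave whole reads (tolerance 0.001) for 100% of values. Median ratios were equal in all libraries of a tissue within each of the 4 tables, so each tissue and each table was scaled alone. The main test was limma 3.58.1 (R 4.3.3) with a trend on log2(value + 1), which understates changes of low miRNAs. It covered miRNAs with a mean value of at least 5, two-sided, with Benjamini-Hochberg adjustment over the miRNA table and a threshold of 0.05. The BPA difference was fitted on the 8 libraries of a tissue; tissue difference and interaction used 16 libraries in 4 groups. Ratios were tested by exact permutation, and the test of how their BPA effect differs between tissues was added after seeing the data. Alternatives were edgeR 4.0.16 and DESeq2 1.42.0 on recovered reads, other pseudocounts, filters and scales, thinned reads, library codes, the animal as a block and leaving out each animal. Numbers pair libraries because each marks 1 animal; liver and muscle deviations of an animal correlated by -0.68 to 0.44 over 76 miRNAs. Replicate libraries differed by more than counting noise, with chi-square over its degrees of freedom at 18.2 or above. All 105 miRNAs matched RefSeq by symbol, for names and hairpin lengths only. The members were named in all comparisons, as were the 3 most like each, the stromal list and called list members. Members and lists were chosen with earlier results of these data known. The code was tested on simulated data.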

Additional observations from a re-analysis of the deposited data

Results flagged for a closer look

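Of 24 groups of 4 libraries examined (3 miRNAs and 3 ratios in 4 groups), 4 held a library whose gap to the nearest other exceeded Dixon's 95% critical value; chance gives about 1 in 20. MIR143 in BPA muscle 984, at 5653, lay far below the other BPA muscles (13117 to 13862). In control muscle, animal 928 lay far above the other 3 for the ratio of MIR143 to MIR199A (4.00), of MIR143 to MIR21 (33.9) and of MIR199A to MIR21 (8.47). All 3 ratios come from 1 library, in which MIR143 was at 22778 and MIR21 at 672, the highest and the lowest of the muscle libraries.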

How the results depend on the processing

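MIR21 was lower in muscle, and past the threshold, under every alternative run, from -1.77 to -3.32. The deposited tissue calls of MIR143 and MIR199A were lost in 4 fits that shared a scale between tissues, at -0.34 and -0.24 with size factors over both tissues, -0.15 and -0.019 with edgeR, -0.33 and -0.20 with DESeq2 and -0.50 and -0.40 with 1 size factor over the 4 tables; they were kept on values scaled to the total of miRNA reads (-1.72 and -1.62). With medians the ratios of MIR143 and MIR199A to MIR21 were 1.58 and 1.79 log2 units higher in muscle, at an adjusted exact p of 0.0938. With 1 size factor over the 4 tables, MIR21, MIR143 and MIR199A were 1.39, 1.58 and 1.96 higher in BPA livers, 68 miRNAs were called and the median of all miRNAs moved to 1.52. The interactions were then -1.85, -2.60 and -2.78 with 70 calls and a median of -1.98, and MIR21 in muscle was at -0.18. MIR29A in liver was then at 0.95 and MIR30B, no longer past the threshold, at -0.41; MIR29A passed with DESeq2 (-0.52). Near 0, MIR21 changed sign in liver with edgeR (0.011). Leaving out single animals moved it from -0.26 to 0.040 in liver, from -0.018 to 0.14 in muscle and from -0.019 to 0.36 in the interaction, and MIR143 in liver from -0.090 to 0.29. The liver count of 9 calls was 15 with codes up to 79 (added after seeing the data) and 4 to 15 without single animals. The interaction count of 2 was 1 with edgeR, 11 with the code range as a covariate, 10 with codes up to 79, 0 with thinned reads, 0 with the replicate block and 0 to 9 without single animals. The replicate block changed no call of the 3 miRNAs. The limma adjusted p of the tissue difference was then 2.99e-08 for MIR21, 0.00382 for MIR143 and 0.00286 for MIR199A. Apart from these, 401 of the recomputed results were classed as the same. For a difference this meant the same direction and side of the threshold. For a count of calls it meant a count within a set factor of the main one. The cause of each change was not tested.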
